A study of Mus musculus with 2 samples.

Results

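The collagen, laminin and integrin genes were followed across the cells of the corticoseptal boundary, where the cortex meets the septum and axons of the corpus callosum cross, in mouse embryos at E16.5. Members were taken by symbol alone: every gene named Col, Lam or Itg with the numbering of those families, 86 of the 32285 genes in the count matrices. They were 44 collagens, 11 laminin chains, 26 integrin subunits and 5 genes whose symbols match although they encode no integrin subunit. The groups compared were wild type (WT) and Tcf4f/f;Emx1Cre (cKO), each a single single-cell library. In the cKO, floxed Tcf4, which encodes a bHLH E-protein, is recombined by Cre from Emx1, a gene of dorsal telencephalic progenitors, so cells outside that lineage keep Tcf4. The labels give neither the floxed exon nor the number of embryos in each library.

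Collagens are trimeric matrix proteins. Fibrillar types form rope-like fibrils, type IV forms the mesh of basement membranes, and fibril-associated types decorate fibrils. Laminins are trimers of an alpha, a beta and a gamma chain that start the assembly of basement membranes, such as the pial surface to which radial glial endfeet attach and the sheath of blood vessels. Integrins pair an alpha with a beta subunit and bind these proteins at the cell surface: some alpha subunits favour laminin, others collagen, and others an RGD peptide found in fibronectin, vitronectin and osteopontin.

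The 8634 WT cells had a median of 9660 UMIs (unique molecular identifiers, each 1 captured transcript) and the 10101 cKO cells 8143. The libraries shared 21 cell barcodes. Cells fell into 33 clusters made without the members, of which 9, with 28.8% of WT and 28.9% of cKO cells, could not be given a class from the marker lists and are called by number. A level is the UMIs of a gene per 1000000 UMIs of a cell group (CPM). Where a pair of levels is given, WT stands first and cKO second, and brackets hold an exact Poisson 95% interval. A ratio is cKO over WT, with an exact conditional binomial 95% interval in brackets. These intervals cover counting error only. With 1 library per genotype, no difference below has a replicate check or a test, and genotype and library cannot be told apart. Tcf4 itself, read by 3' tags that may lie outside the deleted part, was at 2717 and 1905 CPM in glutamatergic neurons and 546 and 507 CPM in GABAergic neurons, so the tags give no measure of the protein.

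Of the 86 members, 66 reached 50 UMIs over the cells of both libraries, the minimum for a statement on a single gene. That left 36 of 44 collagens, 9 of 11 laminins, 17 of 26 integrins and 4 of the 5 other genes. The families held 45548, 7590, 47244 and 12348 UMIs in all. The members just inside the minimum were Col7a1 and Col13a1 with 62 UMIs each and Col19a1 with 68, and those just outside were Itga7 with 47, Itgb2 with 43 and Itga11 with 42. Itgad and Itgb2l had 0 UMIs, which at this depth does not show absence. Over all cells the collagens summed to 282 and 210 CPM, the laminins to 46.7 and 35.4 CPM, and the integrins to 275 and 235 CPM. These sums move with the share of each cell type in a library, so the values below are given within cell groups.

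Collagen and laminin UMIs were enriched in 1 small cluster of vascular cells and fibroblasts, although most of them lay in other cells. Cluster 28, with 55 WT and 38 cKO cells, carried endothelial and mural markers together, among them Cldn5, a tight-junction gene of brain endothelium. Its cells are called vascular below, but 19 WT and 7 cKO of them formed a sub-cluster with the fibroblast genes Lum and Dcn. Values of the whole cluster are thus not those of vessels alone. Another sub-cluster, named mural by its markers, held 13 WT and 1 cKO cells. WT and cKO values of the whole cluster therefore compare unlike mixtures of cells. The whole cluster held 1.52% and 1.38% of the cell UMIs of the libraries. Its share was 21.7% and 19.1% of collagen UMIs and 19.8% and 23.4% of laminin UMIs. Integrin UMIs were less enriched there, at 6.21% and 5.95%. Of the 66 members, 29 (43.9%) had their highest level in cluster 28 among 17 cell groups (the 9 named classes and the unnamed clusters with at least 50 cells), against 9.67% of all 15868 genes with 50 UMIs. Some members, such as Lamc3, passed the 50-UMI minimum only through cluster 28, and the same can hold for any gene. Cluster 2 followed with 12 members (7.51% of genes), and the ependymal or choroid class with 10 (8.68%). Microglia and oligodendrocyte progenitors had 3 each (8.86% and 9.45%), and clusters 0, 13 and 18 had 2 each (5.36%, 4.22% and 4.1%). Cajal-Retzius cells, GABAergic neurons and intermediate progenitors had 1 each (10.6%, 2.79% and 3.33%). None was highest in astroglia (2.65%), cycling progenitors (4.03%), glutamatergic neurons (2.86%), or clusters 16, 17 and 19 (3.32%, 5.33% and 7.2%). Cluster 2 is itself nearest to astroglia by its markers: 13 of the 14 astroglial markers were at least 1.5-fold above the other cells, though its top 10 genes held more markers of another class. The 14 summed to 18224 and 17913 CPM, against 12906 and 11485 CPM in the astroglial class. The same group ranked highest in both libraries for 48 of 66 members, against 52.5% of genes.

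Among the 9 named classes alone, without the vascular cells, the ependymal or choroid class was highest for 20 members (12.6% of genes) and oligodendrocyte progenitors for 14 (14.0%). Astroglia came next with 10 (8.67%) and microglia with 8 (12.4%). Cajal-Retzius cells had 5 (16.1%), GABAergic neurons and cycling progenitors 3 each (8.17% and 10.2%), glutamatergic neurons 2 (8.87%) and intermediate progenitors 1 (9.01%). This order changed with the settings. Astroglia had 17 members, against 16 for the ependymal or choroid class, with a mitochondrial limit of 5%, and 21 against 17 when unnamed cells joined their nearest class. They had 16 against 18 when clusters were finer or members could steer the clustering. The top class was the same in both libraries for 46 members, against 61.1% of genes.

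The vascular set held type IV collagen. Col4a1, the alpha 1 chain of the basement membrane mesh (ENSMUSG00000031502, GRCm38 chromosome 8, 11198423 to 11312826, minus strand), was at 1485 (1422 to 1550.2) and 1371 (1307 to 1437) CPM in vascular cells. Its partner chain Col4a2 (ENSMUSG00000031503, chromosome 8, 11312805 to 11449287, plus strand) was at 791 (745 to 839) and 796 (748 to 847) CPM. The libraries differed little in either gene, with ratios of 0.923 (0.866 to 0.984) and 1.01 (0.924 to 1.10). For Col4a1 the next group was cluster 2, at 142 and 136 CPM, and for Col4a2 the ependymal or choroid cells, at 104 and 91.4 CPM. The genes lie head to head, with RefSeq start sites 21 bases apart on opposite strands and overlapping 5' ends. Their promoter windows, from 250 bases before to 50 bases after the start (RefSeq, GRCm38.p6), are shown because the pair shares this sequence: the 78 bases in capitals are the same genomic bases read on opposite strands, at chr8:11312777-11313076 for Col4a1 (minus strand) and chr8:11312555-11312854 for Col4a2 (plus strand).
Col4a1: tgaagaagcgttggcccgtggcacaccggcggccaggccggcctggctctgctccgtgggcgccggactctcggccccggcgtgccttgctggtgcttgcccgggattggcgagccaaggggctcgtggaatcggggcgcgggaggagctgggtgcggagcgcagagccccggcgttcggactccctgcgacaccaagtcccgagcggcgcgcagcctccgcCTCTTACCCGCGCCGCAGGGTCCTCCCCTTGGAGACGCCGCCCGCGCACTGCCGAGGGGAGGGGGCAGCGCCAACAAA
Col4a2: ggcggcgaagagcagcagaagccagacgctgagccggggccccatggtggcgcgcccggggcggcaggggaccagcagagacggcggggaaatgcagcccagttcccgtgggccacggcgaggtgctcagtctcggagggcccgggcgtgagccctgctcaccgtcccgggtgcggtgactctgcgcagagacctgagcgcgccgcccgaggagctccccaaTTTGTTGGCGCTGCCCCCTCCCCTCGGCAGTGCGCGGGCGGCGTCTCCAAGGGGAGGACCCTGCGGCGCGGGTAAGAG
The windows are 74.0% and 73.7% G and C. Each holds 1 CCAAT on either strand, and GGGCGG or its reverse complement occurs 1 time in the Col4a1 window and 3 times in that of Col4a2. Among the 62 members with a promoter in the RefSeq table, 54.8% hold GGGCGG on either strand, against 35.9% of 27025 promoters of the same length, and 25.8% hold CCAAT, against 37.9%. Such matches describe letters in a window and do not show binding.

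The head-to-head pair on chromosome X, Col4a5 and Col4a6, with 1309 bases between the annotated genes, had another pattern. Both were highest outside the vascular cluster, in cluster 2. There Col4a5 was at 76.9 (70.9 to 83.3) and 63.3 (55.7 to 71.6) CPM and Col4a6 at 14.5 and 7.79 CPM. In the vascular cluster Col4a5 was at 13.5 and 9.43 CPM and Col4a6 at 5.69 and 3.14 CPM. Among the network collagens, the alpha 1 and 2 chains of type IV thus had their highest level in the vascular cluster. The alpha 5 and 6 chains had theirs in neural cells.

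The laminin chains of the vascular cluster included Lama4, the alpha 4 chain of endothelial basement membrane, at 195 (172 to 219) and 186 (163 to 211) CPM. Lamb1, the beta 1 chain, was at 156 (136 to 179) and 193 (169 to 218) CPM, and Lamc1, the gamma 1 chain of most laminins, at 142 (123 to 163) and 115 (96.9 to 135) CPM. Lamc3, the gamma 3 chain, had 78 and 59 UMIs there and at most 3 in any other cell group. With 141 UMIs over all cells, it passed the 50-UMI minimum only through this cluster. Other chains had other homes. Lama5 and Lamb2 had their highest level over both libraries in the ependymal or choroid cells. Lama5 was at 41.5 and 18.6 CPM there and Lamb2 at 35.2 and 13.5 CPM, although in the cKO library Lamb2 was higher in the vascular cluster, at 29.9 CPM. Lama2, the alpha 2 chain, was highest over both libraries in intermediate progenitors, the Eomes-positive daughters of radial glia. It was at 11.6 (8.77 to 14.999) and 17.2 (13.9 to 21.1) CPM there, beside 16.4 and 11.8 CPM in the vascular cluster. Astroglia held Lamc1 at 21.8 and 19.3 CPM and Lamb2 at 17.1 and 16.01 CPM.

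Most UMIs of the connective-tissue collagens Col3a1 and Col1a1 came from cluster 28, with 499 and 162 of 532 and 167 UMIs for Col3a1 and 483 and 149 of 563 and 191 for Col1a1. Col1a2 was spread more widely, with 474 and 112 of 941 and 264 UMIs. In cluster 28, Col3a1 was at 355 and 127 CPM, Col1a1 at 344 and 117 CPM and Col1a2 at 337 and 88.1 CPM, all higher in WT. When cluster 28 was divided further, a step chosen after seeing the data, the highest WT levels of these 3 genes lay in sub-cluster 1, which carried Lum and Dcn, proteoglycan genes of fibroblasts, in 19 WT and 7 cKO cells. In sub-cluster 1 Col3a1 was at 921 (834 to 1015) and 238 (182 to 306) CPM and Col1a1 at 796 and 131 CPM. Dcn there was at 696 and 91.2 CPM and the 12 fibroblast markers together at 2015 and 674 CPM, also lower in cKO. The 7 cKO cells also differed from the WT cells in markers of other types: erythroid markers summed to 168 and 53736 CPM, astroglial to 2961 and 5629 CPM and endothelial to 3038 and 4142 CPM. In sub-clusters 0 and 2, with 23 WT and 30 cKO cells between them and 12 endothelial markers summing to 7482 and 7905 CPM, Col1a1 was at 121 (98.4 to 148) and 110.3 (90.8 to 133) CPM. Col4a1 was at 1454 and 1438 CPM in the same cells. Lamb1 was at 131 and 208 CPM there, a ratio of 1.58 (1.25 to 2.02). The chains of collagen VI, the beaded-filament collagen, were in cluster 28 at 44.8 and 3.93 CPM for Col6a1, 33.4 and 8.65 CPM for Col6a2 and 49.8 and 9.43 CPM for Col6a3, and Col5a1 at 40.5 and 8.65 CPM, each higher in WT as the fibroblast markers were. The part of these other cells' markers in the differences was not tested. Col18a1, the basement membrane collagen that yields endostatin, was at 179.9 and 182 CPM in the cluster, Col26a1 at 53.3 and 25.9 CPM and Itga5, the fibronectin receptor subunit, at 31.3 and 50.3 CPM. Haemoglobin and other erythroid markers summed to 35939 and 63763 CPM in the vascular cluster.

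**Figure D1:**
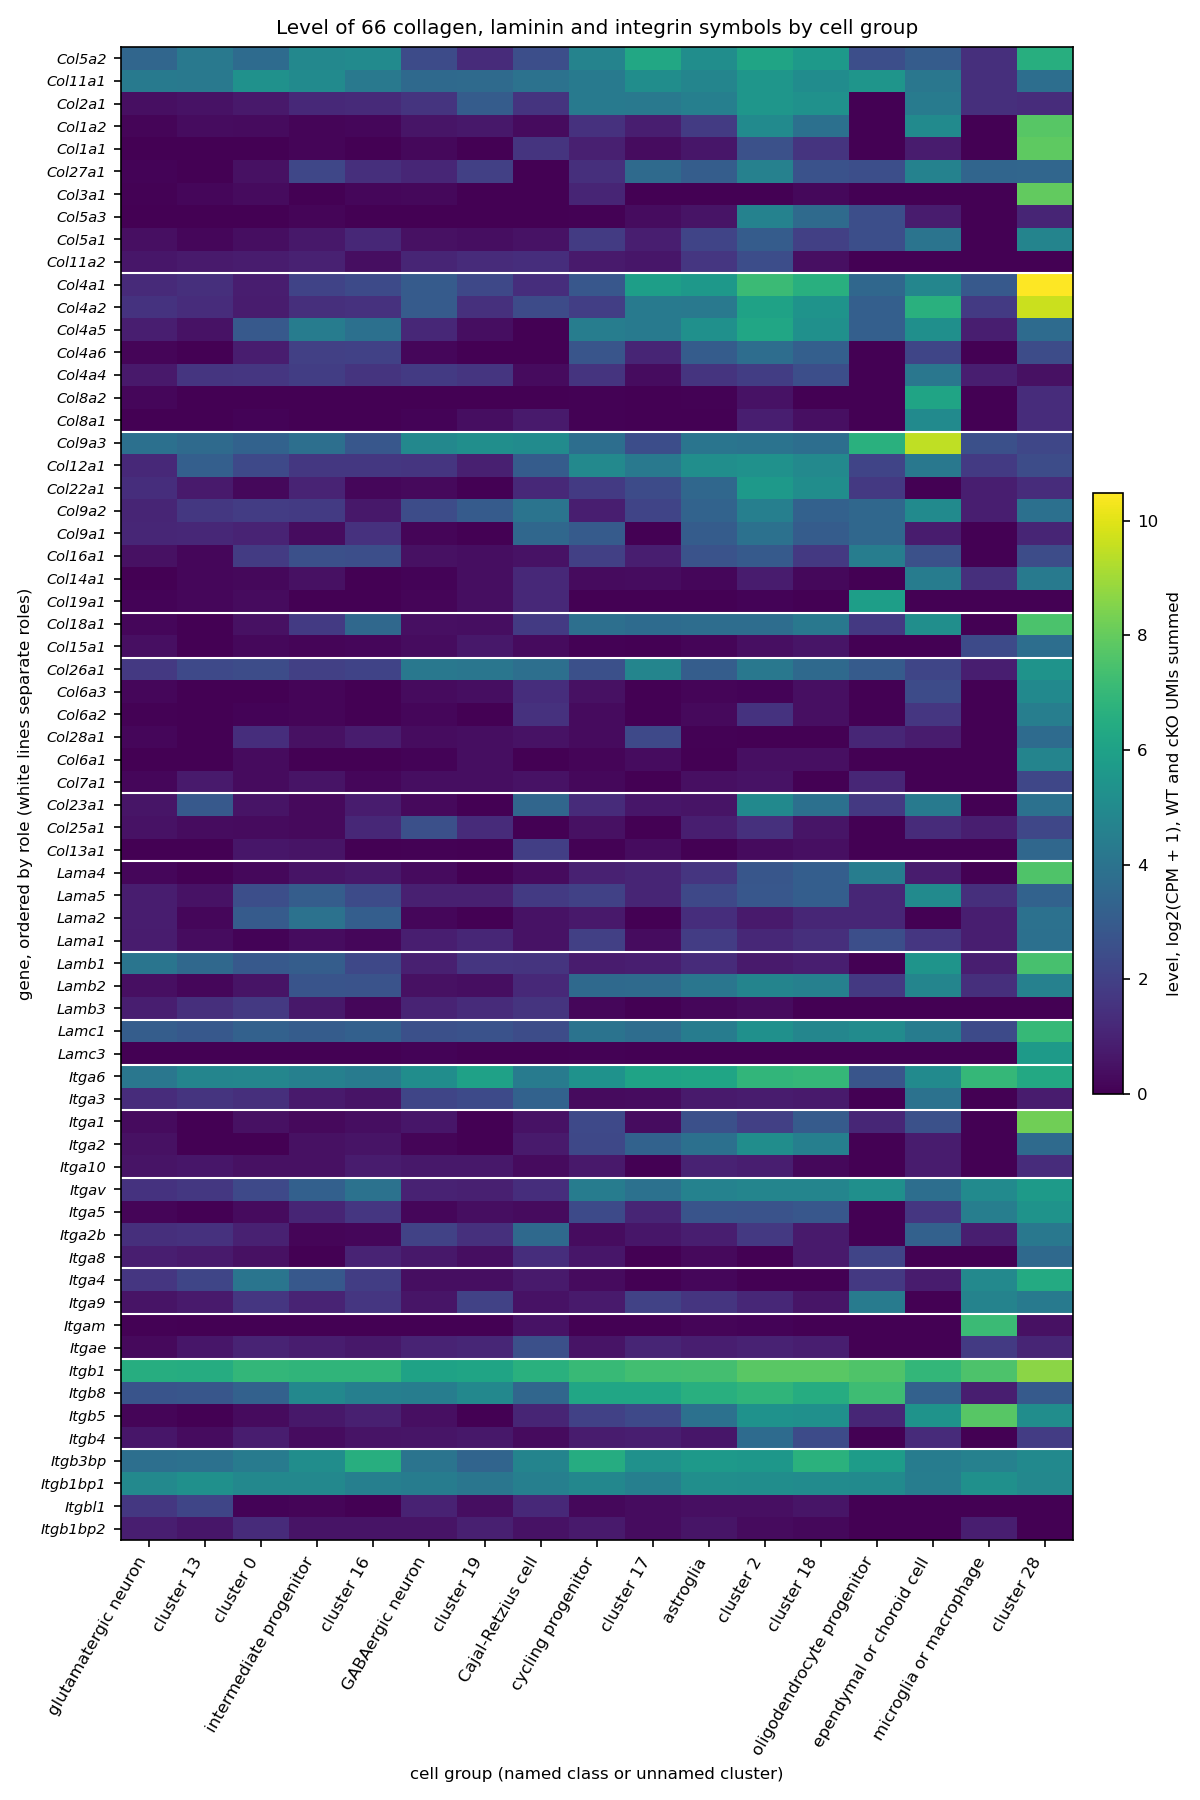
Each row is 1 of 66 members with at least 50 UMIs and each column 1 of 17 cell groups; colour gives log2 of CPM plus 1 over the summed UMIs of both libraries, and white lines separate the roles. Cluster 28, the vascular cells and fibroblasts at the right edge, holds the highest level of 29 members, among them Col4a1 and Col4a2. Cluster 2 holds that of 12.

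In WT, cluster 2 held more collagen UMIs than any other neural group, 6314 against 3085 in astroglia, while in cKO it held 2683 against 3281. Its 798 WT and 468 cKO cells had Cnmd, Capsl, Fgf17 and Pifo among their leading genes, with Fgf17, a growth factor gene of the anterior midline, at 220.3 and 115 CPM and the septal gene Six3 at 391 and 356 CPM. The cluster held 8.47% of WT and 4.31% of cKO cell UMIs but 24.1% and 13.8% of collagen UMIs. Its 12 leading members included Col4a5, Col22a1, Col2a1, Col23a1, Col5a3 and the collagen receptor subunit Itga2. That count was 5 to 7 when the mitochondrial limit was 5%, doublet calls were kept, clusters were finer or members could steer the clustering. Col22a1, a collagen of tissue junctions, was at 50.05 (45.2 to 55.2) and 48.2 (41.7 to 55.6) CPM, and Col2a1, the main cartilage collagen, at 45.6 and 43.7 CPM. The libraries overlapped in both. The defining fibroblast genes were near 0 in cluster 2, with 3 and 0 UMIs of Dcn and 0 of Lum, and the 12 fibroblast markers summed to 111 and 125 CPM, nearly all of it Ogn with 825 and 488 UMIs.

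Each small class had a member nearly to itself. Col8a2 and Col19a1 below, with 112 and 68 UMIs over all cells, passed the 50-UMI minimum only through the class that holds them. Their place in 1 class is thus partly set by that minimum. The 59 ependymal or choroid cells, which carry Ttr, the transthyretin gene of choroid plexus, held Col9a3, a chain of fibril-associated collagen IX (ENSMUSG00000027570, chromosome 2, 180597790 to 180622189, plus strand), at 595 (543 to 651) and 853 (780.3 to 931) CPM. The next group, oligodendrocyte progenitors, was at 96.5 and 104 CPM. Col8a2, a network collagen, was at 67.9 (51.05 to 88.7) and 71.1 (51.2 to 96.1) CPM in the ependymal or choroid cells and had at most 5 UMIs in any other group. Oligodendrocyte progenitors (37 WT and 38 cKO cells) held Col19a1, a fibril-associated collagen, at 68.02 (46.2 to 96.5) and 47.1 (28.4 to 73.6) CPM, with at most 6 UMIs in any other group. In the 43 WT cells of cluster 32, which carry the pigment genes Mlana and Tyr and had 4 counterparts in cKO, Col14a1 was at 165 (134 to 200.5) CPM. Col9a3, Col18a1, Itga4 and Itgb1bp1 end where a gene on the other strand also lies (Tcfl5, Slc19a1, Cerkl and Asap2). Whether the counting used strand is not given in the sources used here, so their UMIs are uncertain to that extent.

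Integrin subunits were spread more widely than the matrix genes. Itgb1, the beta subunit shared by the laminin and collagen receptors, was found in every group, from 67.9 and 61.7 CPM in GABAergic neurons to 438 (404 to 474) and 368 (335 to 403) CPM in vascular cells. Itga6, a laminin receptor subunit, was at 123 and 129.9 CPM in cluster 18 (cycling cells with Fgf8), 147 (119 to 180.2) and 103 (78.7 to 132) CPM in microglia, and 73.6 and 67.7 CPM in astroglia. The order of cluster 18 and microglia changed with the library. The collagen receptors divided by cell type. Itga1 was at 287 (259 to 316) and 304 (275 to 336) CPM in vascular cells, with the next group, cluster 18, at 6.10 and 8.49 CPM. Itga2, its neighbour on chromosome 13 with 20996 bases between them, was highest in cluster 2, at 32.2 and 39.7 CPM, and was at 14.2 and 7.86 CPM in vascular cells. Itga1 overlaps Pelo on the same strand, so some of its UMIs could belong to either gene.

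RGD-binding and leukocyte integrins marked other cells. Itgb8, which pairs with alpha V and releases latent TGF-beta, was at 134 (102 to 172) and 164 (127 to 208) CPM in oligodendrocyte progenitors, 114 and 115 CPM in cluster 2 and 98.8 and 93.9 CPM in astroglia, but at 5.68 and 5.29 CPM in glutamatergic neurons. Microglia (52 WT and 57 cKO cells) held Itgam, the CD11b subunit that defines myeloid cells, at 139 (112 to 171) and 143 (114 to 177) CPM, with at most 2 UMIs in any other group. Itgam, with 181 UMIs over all cells, passed the 50-UMI minimum only through this class. Microglia also held Itgb5, a partner of alpha V, at 247 (209.5 to 289) and 187 (154 to 225) CPM. Erythroid markers summed to 96390 and 93014 CPM in the microglial class, and Itgb2, the partner of Itgam, stayed below the minimum with 43 UMIs over all cells. Itga4, a receptor subunit for fibronectin and VCAM1, was at 81.8 and 88.8 CPM in vascular cells and, among neural cells, was highest in cluster 0 (Neurod1 and Nhlh1), at 13.01 and 17.4 CPM. Members with 50 UMIs that are not named with a level stayed below 50 CPM in every group.

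Between genotypes, most members differed little within a cell group. A member was counted when its ratio was at least 1.5-fold from 1 and it had at least 50 UMIs in that group. Over the 7 named classes with at least 50 cells in each library, 5 of 126 gene and class pairs were higher in cKO and 12 lower, in 15 distinct genes. Over all genes in the same classes, 2.7% were higher and 3.59% lower. With cells thinned to equal UMIs the lower count was 4. It was 21 to 31 with a 5% mitochondrial limit, doublets kept, coarser clusters, unnamed cells in the nearest class or a doubled UMI minimum. The pairs tested and the share over all genes were not counted in these settings. Their counts cannot be set against 126 pairs or 3.59%. Per class the member counts were small. In glutamatergic neurons 3 of 16 members were lower and 1 higher, against 6.8% and 3.8% of genes. In intermediate progenitors 2 of 17 were lower and 1 higher (3.27% and 2.37%). In astroglia 2 of 32 were lower and 0 higher (2.16% and 1.82%), and in cycling progenitors 3 of 29 were lower and 0 higher (2.48% and 1.79%). In GABAergic neurons 1 of 20 was lower and 3 were higher (1.51% and 3.06%). In Cajal-Retzius cells 1 of 8 was lower and 0 higher (3.7% and 2.12%), and in microglia 0 of 4 passed in either direction (9.61% and 6.12%).

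The median log2 ratio was -0.26 in glutamatergic neurons, -0.17 in intermediate progenitors, -0.17 in cycling progenitors and -0.13 in astroglia, where the medians of all genes lay between -0.03 and -0.01. Across the alternative settings the members' median stayed below 0 in glutamatergic neurons (-0.36 to -0.04), cycling progenitors (-0.35 to -0.11) and astroglia (-0.39 to -0.06). In intermediate progenitors it was 0.02 when members could steer the clustering. The glutamatergic class is built of different clusters in the libraries, such as cluster 8 with 848 WT and 5 cKO cells. Its values here therefore mix cluster make-up with level. The count of members with a ratio below 1 was 14 of 16 in glutamatergic neurons (53.4% of genes), 10 of 17 in intermediate progenitors (55.5%), 22 of 29 in cycling progenitors (53.5%) and 24 of 32 in astroglia (52.7%). It was 7 of 20 in GABAergic neurons (47.9%), 3 of 8 in Cajal-Retzius cells (52.6%) and 3 of 4 in microglia (54.5%). In the unnamed clusters it was 11 of 17 in cluster 0 (51.8%), 24 of 36 in cluster 2 (54.4%), 9 of 12 in cluster 16 (53.2%), 4 of 13 in cluster 17 (53.3%), 17 of 25 in cluster 18 (55.6%) and 4 of 6 in cluster 19 (51.4%). The medians of GABAergic neurons and Cajal-Retzius cells were 0.07 and 0.08, and the alternatives ran from -0.11 to 0.10 and from -0.04 to 0.44.

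**Figure D2:**
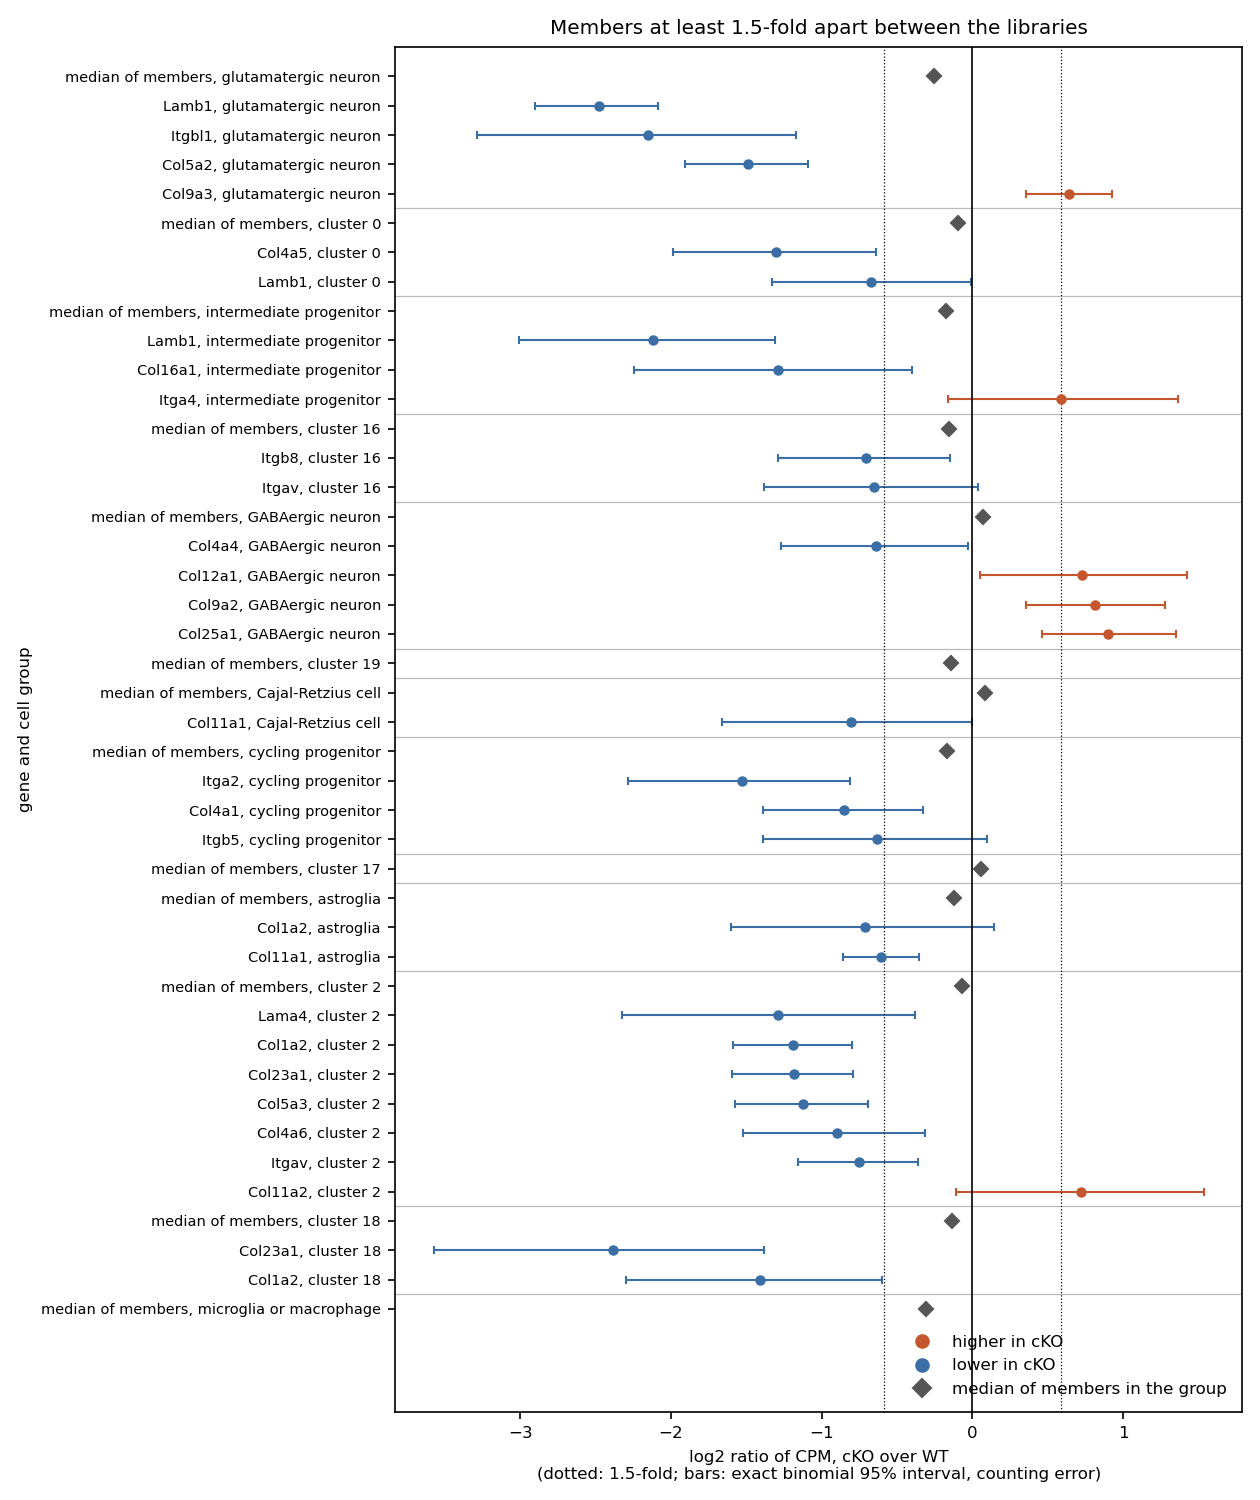
Each circle is 1 member in 1 cell group whose level was at least 1.5-fold apart between the libraries at 50 or more UMIs, as the log2 ratio of cKO over WT with an exact binomial 95% interval; diamonds give the median of the members tested in that group and dotted lines 1.5-fold. Lamb1 has the lowest ratio in glutamatergic neurons and in intermediate progenitors. In the 7 named classes, 12 of 126 pairs tested lie on the lower side and 5 on the higher, against 3.59% and 2.7% of all genes. A gene can appear in more than 1 group.

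The member that differed most in the cortical neuron lineage was Lamb1, the beta 1 chain of most brain laminins (ENSMUSG00000002900, chromosome 12, 31265234 to 31329644, plus strand). In glutamatergic neurons it had 429 UMIs in WT and 59 in cKO, or 24.9 (22.6 to 27.3) and 4.46 (3.39 to 5.75) CPM, a ratio of 0.179 (0.134 to 0.236). The counting intervals did not overlap. The class is built of different clusters in the libraries, since cluster 8 held 848 WT and 5 cKO cells, and clusters 14 and 21 held 4 and 17 WT but 579 and 313 cKO cells. Cluster 5, with 534 WT and 587 cKO cells, was shared, and there Lamb1 was at 27.5 (23.1 to 32.5) and 3.80 (2.17 to 6.17) CPM, a ratio of 0.138 (0.0767 to 0.232). The WT level in cluster 8 was 24.1 CPM, and the cKO levels in clusters 14 and 21 were 4.75 and 4.90 CPM. The 3 glutamatergic clusters with over 300 cKO cells were thus alike in their low cKO level. Cluster 13, unnamed but nearest to glutamatergic neurons by its markers, held Lamb1 at 10.17 (7.91 to 12.9) CPM in 594 cKO cells and at 17.04 (6.85 to 35.1) CPM, from 7 UMIs, in 39 WT cells.

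Lamb1 was also lower in cKO earlier in the lineage. Intermediate progenitors had 62 and 16 UMIs, or 12.6 (9.65 to 16.1) and 2.90 (1.66 to 4.71) CPM, a ratio of 0.230 (0.124 to 0.404). In cluster 0, which carries the newborn-neuron genes Neurod1 and Nhlh1, Lamb1 was at 8.41 (6.06 to 11.4) and 5.29 (3.78 to 7.20) CPM, a ratio of 0.629 (0.397 to 0.993). In that cluster 2 of 17 members were lower and 0 higher, against 3.56% and 3.43% of genes. The other groups with Lamb1 above 20 CPM were not lower in cKO, with ratios of 1.23 (1.02 to 1.48) in vascular cells and 1.44 (0.832 to 2.504) in ependymal or choroid cells. These are small groups, with 55 WT and 38 cKO cells and 35 WT and 24 cKO cells, and their make-up differed between the libraries. In the ependymal or choroid class its own markers summed to 234964 and 336880 CPM and erythroid markers to 19072 and 132 CPM. The part of make-up in these 2 ratios was not tested. In astroglia, GABAergic neurons and cycling progenitors the level was under 2 CPM in both libraries. Across the alternative settings the Lamb1 ratio lay between 0.138 and 0.303 in glutamatergic neurons, 0.131 and 0.408 in intermediate progenitors, and 0.273 and 0.640 in cluster 0. In droplets without cells, Lamb1 was at 11.5 and 1.20 CPM, from 28 and 4 UMIs.

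**Figure D3:**
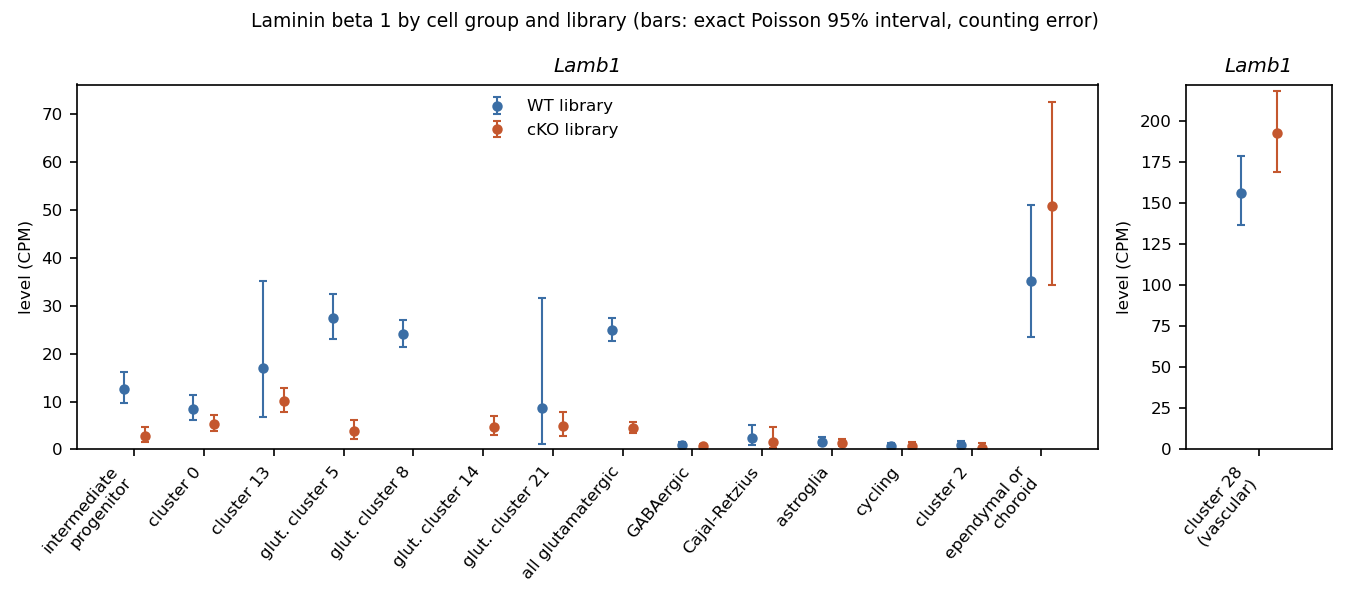
Points give the Lamb1 level in CPM for each cell group in the WT and the cKO library, with exact Poisson 95% intervals; a library with fewer than 10 cells in a cluster is not drawn, and the vascular cluster has its own axis. The cKO points of glutamatergic neurons and intermediate progenitors lie below the WT intervals, and those of vascular and ependymal or choroid cells do not.

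Lamc1, the only other laminin chain with 50 UMIs in glutamatergic neurons, stayed within 1.5-fold. It was at 7.88 and 7.104 CPM there and 5.69 and 8.52 CPM in intermediate progenitors, and Lama2 in intermediate progenitors had a ratio of 1.49 (1.06 to 2.105). The sparse alpha chains of glutamatergic neurons were lower in cKO as well, with 18 and 5 UMIs of Lama1, 19 and 5 of Lama2 and 18 and 6 of Lama5, under the minimum for a single gene. The summed laminin level of glutamatergic neurons was 37.4 CPM in WT and 13.98 CPM in cKO, most of the difference being Lamb1. The promoter window of Lamb1 (RefSeq, GRCm38.p6, plus strand, chr12:31265043-31265342) is shown as that of the gene the comparison turns on, with its 2 matches to GGGCGG on either strand in capitals.
Lamb1: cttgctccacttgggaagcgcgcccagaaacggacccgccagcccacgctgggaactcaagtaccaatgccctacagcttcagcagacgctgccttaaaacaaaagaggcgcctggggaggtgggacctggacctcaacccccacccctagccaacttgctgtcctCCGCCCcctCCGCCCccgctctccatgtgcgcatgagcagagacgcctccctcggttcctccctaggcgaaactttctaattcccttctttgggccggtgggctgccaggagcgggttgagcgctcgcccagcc
The window is 63.7% G and C and holds 1 CCAAT. The E-box motif CAGGTG, a kind of sequence that E-proteins such as Tcf4 can bind, is on neither strand of this window or of the Col4a1 and Col4a2 windows. It is found in 20.03% of all promoters and 17.7% of the 62 member promoters. The E-box motif CAGCTG, also missing from the 3 windows, is found in 16.1% and 27.4%. These letters say nothing of binding, here or outside the window.

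In the same neurons 2 further members were lower and 1 higher. Col5a2, a fibrillar collagen V chain (ENSMUSG00000026042, chromosome 1, 45374321 to 45503282, minus strand), was at 13.8 (12.1 to 15.7) and 4.91 (3.79 to 6.26) CPM, a ratio of 0.356 (0.266 to 0.470). In shared cluster 5 it was at 9.30 and 7.36 CPM, a ratio of 0.791 (0.486 to 1.27), and in cluster 8, which is nearly all WT, at 15.9 CPM. In clusters 14 and 21, nearly all cKO, it was at 3.23 and 3.81 CPM. Itgbl1, an integrin beta-like secreted protein, was at 3.36 and 0.756 CPM, a ratio of 0.225 (0.102 to 0.444), and 51 of its 58 WT UMIs lay in cluster 8. Col9a3 was at 11.01 (9.50 to 12.7) and 17.2 (14.995 to 19.5) CPM. It was at 12.9 and 15.2 CPM in cluster 5 and at 22.04 CPM in the cKO cells of cluster 14. Itgb1 was at 99.9 and 83.1 CPM in the class and Itga6 at 19.2 and 13.3 CPM, ratios of 0.831 (0.770 to 0.897) and 0.691 (0.572 to 0.832) that stayed within 1.5-fold.

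Among the progenitors of these neurons, Col16a1, a fibril-associated collagen, was at 7.11 (4.95 to 9.89) and 2.90 (1.66 to 4.71) CPM in intermediate progenitors, a ratio of 0.408 (0.211 to 0.757). Itga4 was at 5.08 and 7.62 CPM, and the interval of its ratio, 0.893 to 2.57, includes 1. In cluster 0, Col4a5 was at 10.4 (7.78 to 13.7) and 4.23 (2.89 to 5.97) CPM, a ratio of 0.406 (0.253 to 0.643). In cluster 16, which has Eomes and cell-cycle genes, 2 of 12 members were lower and 0 higher, against 4.62% and 2.46% of genes. They were the TGF-beta releasing pair Itgb8, at 25.5 and 15.7 CPM, and Itgav, at 16.4 and 10.5 CPM. Their ratios were 0.614 (0.409 to 0.902) and 0.637 (0.383 to 1.03), the second with an interval that includes 1.

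Astroglia, the radial glia and astrocyte lineage, differed in Col11a1, a fibrillar collagen found in most groups (ENSMUSG00000027966, chromosome 3, 114030540 to 114220718, plus strand). It was at 32.8 (29.2 to 36.7) and 21.5 (18.9 to 24.5) CPM, a ratio of 0.656 (0.551 to 0.781), and was lower in each of the 3 astroglial clusters. Cajal-Retzius cells, the reelin neurons of the cortical surface, held it at 17.4 (12.7 to 23.3) and 9.97 (6.003 to 15.6) CPM. Col1a2 was past 1.5-fold in astroglia on 29 and 21 UMIs, with a ratio interval of 0.330 to 1.11. In cycling progenitors Itga2 was at 5.86 (4.48 to 7.52) and 2.03 (1.29 to 3.05) CPM, a ratio of 0.347 (0.205 to 0.569). Col4a1 there was at 7.97 and 4.42 CPM, a ratio of 0.554 (0.382 to 0.796). Itgb5, at 3.84 and 2.47 CPM, had a ratio interval of 0.383 to 1.07, which includes 1.

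Among the astroglial clusters, Col2a1 and Itga2 were lower in cKO in clusters 7 and 10 and higher in cluster 15. Cluster 7, with Emx1 at 105 CPM in WT, and cluster 10, with Emx1 at 66.4 CPM, both held less Col2a1 (ENSMUSG00000022483, chromosome 15, 97975602 to 98004695, minus strand) in cKO. It was at 24.4 and 11.995 CPM in cluster 7, a ratio of 0.491 (0.346 to 0.691), and at 14.7 and 7.90 CPM in cluster 10, a ratio of 0.536 (0.334 to 0.851). Cluster 15, with Emx1 at 2.17 CPM and Six3 at 273 CPM in WT, held it at 35.8 (27.7 to 45.5) and 68.4 (57.7 to 80.5) CPM, a ratio of 1.91 (1.42 to 2.60). Itga2 (ENSMUSG00000015533, chromosome 13, 114833081 to 114932100, minus strand) had ratios of 0.433 (0.240 to 0.759) in cluster 7, 0.412 (0.205 to 0.794) in cluster 10 and 1.53 (1.11 to 2.14) in cluster 15. Cycling cluster 11, with Emx1 at 81.1 CPM in WT, was lower in both genes, with a Col2a1 ratio of 0.418 (0.292 to 0.593) and an Itga2 ratio of 0.239 (0.105 to 0.493). Cycling cluster 20, with Emx1 at 78.8 CPM, was lower in Itga2 alone of the pair, with ratios of 0.320 (0.137 to 0.695) for it and 1.004 (0.731 to 1.38) for Col2a1. Cycling cluster 12, with Six3 at 169 CPM in WT, had a Col2a1 ratio of 1.002 (0.641 to 1.56) and 2 and 3 UMIs of Itga2. Cluster 2, with Six3 at 391 CPM and Emx1 at 22.2 CPM in WT, had a Col2a1 ratio of 0.959 (0.796 to 1.15). Over the whole astroglial class the directions offset each other, at 23.2 and 21.3 CPM for Col2a1 and 14.1 and 12.9 CPM for Itga2. Col9a3 was higher in cKO in clusters 10, 15 and 20, with ratios of 1.66, 1.98 and 2.2. The Itga2 ratios in clusters 10, 11 and 20 rest on under 50 UMIs of the gene, the minimum used elsewhere. The differences between clusters were not tested, nor was their relation to the Emx1 level.

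**Figure D4:**
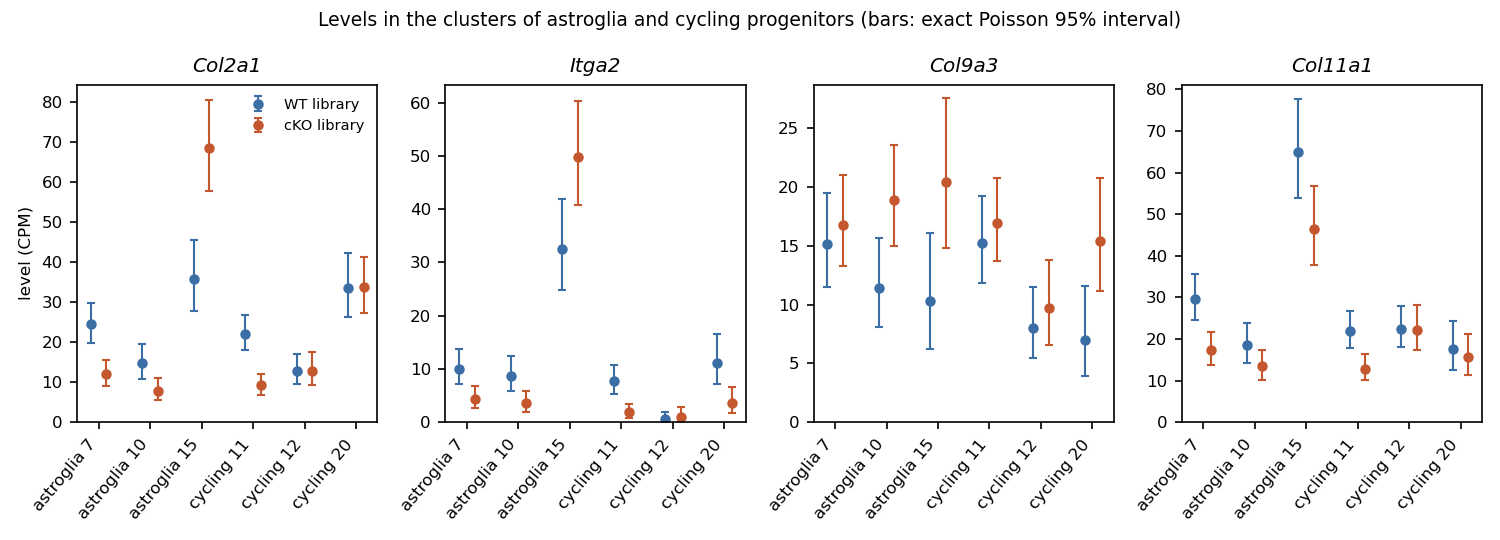
Levels in CPM of Col2a1, Itga2, Col9a3 and Col11a1 in the clusters of astroglia (7, 10 and 15) and cycling progenitors (11, 12 and 20), by library, with exact Poisson 95% intervals. Col2a1 and Itga2 are lower in cKO in clusters 7, 10 and 11 and higher in cluster 15, while Col11a1 is lower in all 3 astroglial clusters.

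In cluster 2, 6 of 36 members were lower in cKO and 1 higher, against 4.24% and 1.63% of genes, with a median log2 ratio of -0.07 beside -0.02 for all genes. Col1a2, a fibrillar collagen I chain, was at 38.3 (34.1 to 42.9) and 16.8 (13.05 to 21.4) CPM. Col23a1, a transmembrane collagen, was at 37.7 (33.5 to 42.2) and 16.6 (12.8 to 21.1) CPM, and Col5a3, a collagen V chain, at 29.5 (25.9 to 33.6) and 13.6 (10.19 to 17.7) CPM. Their ratios were 0.439 (0.332 to 0.574), 0.440 (0.332 to 0.576) and 0.459 (0.335 to 0.620). The direction of Col23a1 turned in 4 alternative settings of filtering and clustering, with ratios of 1.67 to 3.65. Itgav was at 30.1 and 17.8 CPM (ratio 0.594, 0.449 to 0.777), Col4a6 at 14.5 and 7.79 CPM (0.537, 0.349 to 0.804) and Lama4 at 7.39 and 3.02 CPM (0.408, 0.200 to 0.769). Col11a2 was at 3.82 and 6.28 CPM, with a ratio interval of 0.927 to 2.89 that includes 1.

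The make-up of cluster 2 differed between the libraries. Divided further after seeing the data, it gave a sub-cluster 4 with Scube2, Cd36, Six6 and Pax2 that held 91 WT cells, 11.4% of the cluster, and 23 cKO cells, 4.91%. There Col1a2 was at 180.04 (152 to 212) and 162 (107 to 236) CPM, Col23a1 at 180.04 and 174 CPM and Col5a3 at 90.02 and 84.1 CPM. Itgb4, the hemidesmosomal beta subunit, was at 64.7 and 96.1 CPM. In sub-cluster 4 the libraries overlapped in Col1a2, Col23a1 and Col5a3, but not in Itgav, with 52 and 2 UMIs and a ratio of 0.182 (0.0215 to 0.692). Erythroid markers summed to 184 and 31905 CPM in sub-cluster 4, and microglial markers to 90.0 and 198 CPM, and their part in these values was not tested. In sub-cluster 1 (190 WT and 93 cKO cells, with Fgf17), Col1a2 was lower in cKO, at 47.7 (38.4 to 58.4) and 20.8 (11.9 to 33.8) CPM, and Col23a1 was at 76.1 and 32.5 CPM. With the 6 sub-clusters weighted equally, the ratios became 0.77 for Col1a2, 0.85 for Col23a1, 0.735 for Col5a3 and 0.77 for Col4a6, none of them past 1.5-fold, while Itgav at 0.561 and Lama4 at 0.353 were.

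**Figure D5:**
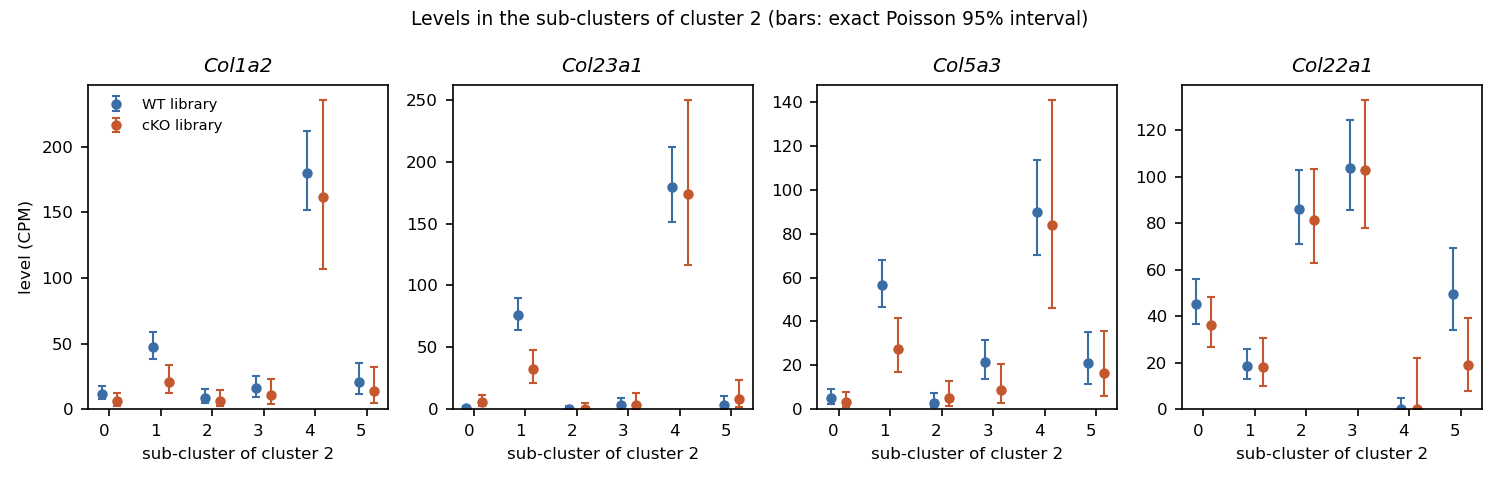
Levels in CPM of Col1a2, Col23a1, Col5a3 and Col22a1 in the 6 sub-clusters of cluster 2, by library, with exact Poisson 95% intervals. Col1a2, Col23a1 and Col5a3 are highest in sub-cluster 4, where the intervals of the libraries overlap, and Col22a1 has 0 UMIs there.

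Cluster 18, the cycling cells with Fgf8 and Fgf17, had 2 of 25 members lower and 0 higher, against 4.41% and 1.98% of genes. They were again Col1a2, at 18.02 (13.9 to 22.97) and 6.79 (3.88 to 11.03) CPM, and Col23a1, at 19.96 (15.6 to 25.1) and 3.82 (1.75 to 7.25) CPM. Their ratios were 0.377 (0.204 to 0.659) and 0.191 (0.0841 to 0.384). In cluster 17 (Gsx1 and Egfr) 0 of 13 members passed in either direction, against 3.17% lower and 2.16% higher, and in cluster 19 0 of 6, against 2.99% and 2.69%.

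GABAergic neurons, which arise outside the Emx1 lineage, had differences at low levels. Col25a1, a transmembrane collagen of neurons, was at 3.39 (2.62 to 4.31) and 6.31 (5.27 to 7.50) CPM, a ratio of 1.86 (1.37 to 2.55) that was 0.969 when each shared cluster counted equally. Col9a2, a collagen IX chain, was at 3.23 and 5.67 CPM, a ratio of 1.75 (1.28 to 2.42). Col12a1, a fibril-associated collagen, was at 1.54 and 2.54 CPM, and Col4a4, a network collagen, at 2.98 and 1.91 CPM. Col9a3 was at 29.3 and 27.7 CPM in the class, but at 43.7 (34.5 to 54.6) and 14.3 (10.3 to 19.5) CPM in cluster 9, the Lhx6 and Lhx8 neurons, a ratio of 0.329 (0.219 to 0.486). Droplets without cells held Col9a3 at 35.02 and 30.7 CPM, and such free RNA made up an estimated 2.24% and 1.20% of the UMIs of a neuron.

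The genes that carry an integrin-like symbol without being subunits kept separate patterns. Itgb3bp, a centromere protein, was at 102 and 103 CPM in cycling cluster 18, 91.1 and 87.9 CPM in cycling progenitors and 13.6 and 12.2 CPM in glutamatergic neurons. Itgb1bp1, which binds the tail of integrin beta 1, was more even, for example 20.2 and 19.8 CPM in GABAergic neurons and 30.7 and 27.6 CPM in glutamatergic neurons.

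Counts for genes that work with these proteins are set against 2.7% higher and 3.59% lower over all genes in the same classes. Of 26 genes for collagen folding and crosslinking, 0 of 95 gene and class pairs were higher in cKO over the 7 named classes and 2 (2.11%) were lower, both in glutamatergic neurons. They were Adamts2, which trims procollagen, with 59 and 5 UMIs (ratio 0.110, 0.0346 to 0.273), and P4ha2, a prolyl hydroxylase, at 4.87 and 2.87 CPM. The glutamatergic class is built of different clusters in the libraries, so ratios of that class mix cluster make-up with level. Of 12 basement membrane partners of laminin, 2 of 34 pairs (5.88%) were higher, Nid2 in astroglia and in cycling progenitors, and 2 lower, Fbln2 in astroglia and Sparc in GABAergic neurons. In astroglia the matrix protein gene Fbln2 was at 33.02 and 16.6 CPM (0.502, 0.415 to 0.605) and the laminin linker Nid2 at 1.53 and 3.50 CPM. Of 22 other matrix receptors, 1 of 105 pairs (0.952%) was higher and 1 lower, both of them the tetraspanin gene Cd9, in microglia and in glutamatergic neurons. Of 32 genes of integrin adhesion machinery, 6 of 159 pairs (3.77%) were higher and 3 (1.89%) lower, among them the adhesion regulator Kank1, at 1.42 and 3.68 CPM in astroglia.

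Integrin ligands outside the laminin and collagen families had 7 of 91 pairs of 30 genes (7.69%) higher and 12 (13.2%) lower, against the same 2.7% and 3.59% of all genes. Some genes entered more than once. Tnc was lower in astroglia, cycling progenitors and intermediate progenitors, and Ltbp1 in glutamatergic neurons and intermediate progenitors. L1cam was higher in astroglia and cycling progenitors, and Ccn1 in GABAergic and glutamatergic neurons. Tnc is also among the astroglial markers used to name clusters. Tgfb2, a secreted growth factor placed on this list, was at 21.7 and 7.104 CPM in glutamatergic neurons (ratio 0.327, 0.258 to 0.411). In cluster 2 it was at 343 and 195 CPM (0.567, 0.523 to 0.614). The make-up of both groups differed between the libraries, so these ratios mix make-up with level. A place on the list does not show that the product of a gene binds an integrin. Npnt, nephronectin, a ligand of alpha 8 beta 1, was at 54.2 and 98.1 CPM in Cajal-Retzius cells. In microglia Spp1, the RGD ligand osteopontin, was at 103 (79.3 to 131) and 2123 (2007 to 2244) CPM, from 65 and 1259 UMIs in 52 and 57 cells, a ratio of 20.7 (16.1 to 26.9). In the same cells the RGD-binding subunit Itgav was at 30.05 and 33.7 CPM. Among other integrin subunits there, Itga4 was at 20.6 and 38.8 CPM, Itga5 at 23.7 and 18.5 CPM and Itgb5 at 247 and 187 CPM. How many cells of the class carry these Spp1 UMIs was not tested.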

How the data were processed

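The members and the gene lists were chosen with earlier results of these data known. The authors deposited 1 matrix of raw UMI counts per library, unfiltered by cell, made with Cell Ranger on mm10: the submitters' processing notes name version 2.1.1 and the file headers 7.1.0. No strand or intron setting is given in the sources used here. The matrices hold 116998498 WT and 121321247 cKO UMIs. Cells were barcodes above 0.1 of the 99th percentile of the top 5000 barcodes (3348 and 3341 UMIs), with 500 or more detected genes and no more than 10% of UMIs from mitochondrial genes. Scrublet, in scanpy 1.11.5, removed 330 and 567 doublets (expected rate 6%). Both libraries were clustered together (2000 variable genes without the members, Tcf4, sex-linked, mitochondrial, ribosomal and haemoglobin genes; 30 components; 15 neighbours; leidenalg 0.10.2 at resolution 1). A cluster was named only where at least 3 markers of a listed class led those of any other 1.5-fold. Counts were summed per class and library, with intervals from scipy 1.17.1 under Python 3.11.15. Counts were also simulated as Poisson draws, the model that the interval assumes, without variation between cells, embryos or libraries. There the 95% interval held the true ratio for 95.3% of 11509 genes in astroglia and 95.2% of 11448 in glutamatergic neurons. That outcome checks the calculation and says nothing of the spread between libraries. Levels are not scaled by length, since tags come from transcript ends, and are compared within a gene.

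Members with at least 50 UMIs were named with values when their highest level reached 50 CPM in either library, when they were past 1.5-fold in a class with 50 UMIs, or when they lay nearest the 50-UMI minimum. Further genes of the lists were named from up to 3 per class and direction. Other filters, cluster resolutions, depths, scalings, free-RNA subtraction and weights of clusters were tried. Positions are from GENCODE on GRCm38. Wild-type and cKO groups follow the sample labels, per the labels 1 library each.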

Additional observations from a re-analysis of the deposited data

Results flagged for a closer look

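Members whose ratio (cKO over WT) went opposite ways between clusters, each at least 1.5-fold from 1 with a counting interval that excludes 1, are listed for clusters with at least 50 cells in each library and 50 UMIs of the gene. None of these differences between clusters was tested, since each library is a single sample, and no cause was weighed. Col2a1 was higher in astroglial cluster 15, with a ratio of 1.91, and lower in clusters 7, 10 and 11, with ratios of 0.491, 0.536 and 0.418. Itga2, a collagen receptor subunit, was higher in cluster 15, at 1.53, and lower in cluster 7, at 0.433. Below 50 UMIs it was also lower in clusters 10, 11 and 20, at 0.412, 0.239 and 0.320. Col9a3 was higher in astroglial clusters 10 and 15, with ratios of 1.66 and 1.98, and in cycling cluster 20, at 2.2. It was lower in GABAergic clusters 9 and 22, at 0.329 and 0.574.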

How the results depend on the processing

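Of 324 ratios recomputed for the 30 gene and group pairs past 1.5-fold, under 12 settings, 316 kept their direction and 273 stayed within the interval first given. 26 of the 30 pairs kept their direction in every setting, Lamb1 among them. The exceptions were Col25a1 in GABAergic neurons (0.969 with shared clusters weighted equally), Col12a1 in GABAergic neurons (0.912 with a mitochondrial limit of 5% and 0.967 at resolution 0.5), Itgb5 in cycling progenitors (1.48 with cells thinned to 3348 UMIs) and Col23a1 in cluster 2 (3.65 with the 5% limit, 1.67 with doublet calls kept, 2.81 at resolution 2 and 2.61 with members among the variable genes). The cause was not tested.

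Over the 7 named classes, 5 pairs were higher in cKO. That count was 9 with the UMI minimum for a cell doubled, 2 with thinned cells, 3 with equal weights, 17 from 20 UMIs, 1 from 200 UMIs, 116 from 1 UMI and 0 at 2-fold. Of the pairs, 12 were lower. That count was 24 with the minimum doubled, 21 with the 5% limit, 31 with doublets kept, 29 at resolution 0.5, 26 with unnamed cells added to the nearest class, 4 with thinned cells, 36 from 20 UMIs, 3 from 200 UMIs, 128 from 1 UMI and 6 at 2-fold. For neither count was the share over all genes recomputed in these settings, nor were the pairs tested counted. These counts cannot be set against the shares given earlier. Of 177 recomputed medians of the log2 ratio, 21 changed sign, in 9 of 13 cell groups. Just 1 differed from the value first given by more than the members' median half-width of the counting interval, 0.13 in microglia with a minimum of 1 UMI. Members highest in astroglia among named classes, 10 as reported, were 17 with the 5% limit, 16 at resolution 2, 16 with members among the variable genes and 21 with unnamed cells added. Members highest in cluster 2, 12 as reported, were 7 with the 5% limit, 6 with doublets kept, 5 at resolution 2 and 5 with members among the variable genes. No paired analysis was possible because each genotype has 1 library and the labels give no pairing. Depth limits statements on members with under 50 UMIs in a group.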
